A study of Homo sapiens with 12 samples.

Results

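PDK4, CPT1A, CPT2, ANGPTL4, ACADVL, ACADM, HADHA and PLIN2 are 8 genes of fatty acid breakdown and lipid storage, most of them known targets of the peroxisome proliferator-activated receptors (PPARs). They were selected by symbol with their log2 ratios in these same data already known, so their ratios to vehicle are a description and carry no test. The genes are 8 of 16489 gene symbols in the table of HCC70 cells, 18215 in the table of MDA-MB468 cells treated with XY018 and atorvastatin (ATV), and 55744 in the table of MDA-MB468 cells treated with GSK805. Each of the 8 symbols was present in all 3 tables, as were 15852 symbols overall.

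Both lines are established human triple-negative breast cancer (TNBC) cell lines, a tumor type defined by the lack of estrogen receptor, progesterone receptor and HER2 amplification, and each stands for 1 tumor only. The study asked how nuclear receptor antagonists act on such cells, with cholesterol synthesis as its subject. XY018 and GSK805 are these antagonists, and ATV is a statin, an inhibitor of the cholesterol-synthesis enzyme HMG-CoA reductase. HCC70 cells, grown in RPMI with serum, received vehicle, XY018 at 1.25 μM, XY018 at 2.5 μM, 1.25 μM of ATV, or both compounds at 1.25 μM, always for 24 h. MDA-MB468 cells, for which the labels name RPMI with serum and insulin and the study's methods name DMEM, received the same treatments, and separately a vehicle of its own or GSK805 at 2.5 μM for 24 h. The labels name no engineered allele or vector in any group, and nothing in them says whether the libraries came from separate cultures.

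Each condition was 1 RNA-seq library, so no difference could be checked against replicates and none carries a p-value. Levels are FPKM, the fragments of a gene scaled by transcript length and library depth, which allows levels of different genes to be set beside each other per length. The log2 ratio of a treated library to the vehicle of its own table was taken with 0.1 FPKM added to both values. Ratios past 1.5-fold were counted where the treated or the vehicle library reached 1 FPKM. Depth, estimated from the spacing of low FPKM values, was 8900000 to 9880000 fragments in HCC70, 17640000 to 19340000 in MDA-MB468 with XY018 or ATV, and 8350000 and 8590000 in the GSK805 pair. Counting intervals are 95% Clopper-Pearson intervals on the ratio of the fragments behind a pair of values, without the added 0.1, and cover counting error only.

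All 6 epithelial and all 5 basal epithelial marker genes reached 1 FPKM in at least one library of every table. ESR1, which encodes the estrogen receptor, stayed at or under 0.67 FPKM in the HCC70 libraries and in the MDA-MB468 libraries with XY018 or ATV, but stood at 1.77 FPKM in the vehicle for GSK805 and at 5.67 FPKM with GSK805. PGR was at 0 in all MDA-MB468 libraries, and ERBB2 ranged from 25.3 to 57.7 FPKM over the 12 libraries. In the GSK805 pair, the 10 highest genes held 46.5% and 50.1% of the summed FPKM, against 6.72% to 10.6% in the other MDA-MB468 libraries. The 3 tables were normalized separately, and ratios were therefore kept within a table.

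Cells burn long-chain fatty acids in mitochondria after the carnitine shuttle has carried them across the inner membrane. CPT1A loads the acyl group onto carnitine at the outer membrane and is the rate-limiting step, and CPT2 returns it to coenzyme A inside. ACADVL and ACADM open each round of β-oxidation on very long and medium chains, and HADHA carries the hydratase and long-chain hydroxyacyl dehydrogenase activities of the trifunctional protein. PDK4 phosphorylates and switches off pyruvate dehydrogenase, which spares glucose when fatty acids are used. ANGPTL4 is a secreted inhibitor of lipoprotein lipase, and PLIN2 coats lipid droplets. PPARs bind fatty acids and drive many of these genes through paired AGGTCA-like elements.

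The 250 bases before the transcription start are printed for ANGPTL4, PDK4 and PLIN2, the members past 1.5-fold higher in more than 1 comparison. They were read from the GRCh37 genome at the start of the MANE Select transcript, 5′ to 3′ on the strand of the gene. Capitals mark TATAAA on either strand, which was the only one of the searched motifs found in these windows.
ANGPTL4 (chr19:8428789-8429038, plus strand): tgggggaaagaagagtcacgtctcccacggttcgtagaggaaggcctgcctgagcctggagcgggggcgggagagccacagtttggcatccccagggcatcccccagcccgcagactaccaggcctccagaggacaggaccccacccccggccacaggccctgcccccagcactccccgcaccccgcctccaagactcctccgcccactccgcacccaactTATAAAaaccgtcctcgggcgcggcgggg
PDK4 (chr7:95225829-95226078, minus strand): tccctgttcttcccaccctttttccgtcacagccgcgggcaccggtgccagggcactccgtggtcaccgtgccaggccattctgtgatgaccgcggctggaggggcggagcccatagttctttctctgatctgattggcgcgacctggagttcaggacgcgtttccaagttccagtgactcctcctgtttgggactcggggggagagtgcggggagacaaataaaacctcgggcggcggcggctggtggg
PLIN2 (chr9:19127491-19127740, minus strand): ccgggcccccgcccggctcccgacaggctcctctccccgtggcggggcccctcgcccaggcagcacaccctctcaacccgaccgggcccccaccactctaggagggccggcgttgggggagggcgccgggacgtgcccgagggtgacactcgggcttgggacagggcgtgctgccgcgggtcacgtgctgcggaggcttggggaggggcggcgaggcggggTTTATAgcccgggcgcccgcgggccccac

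TATAAA stood in the 250 bases before ANGPTL4, at position -29 from its start, and on the opposite strand before PLIN2. It was found in 2 of the 8 members and in 9.11% of 18922 genes. The direct repeat of AGGNCA with 1 base between the copies, a strict form of the PPAR element, had no match on either strand within 3000 bases of the start of any member, and 5.23% of all genes had one. The ROR element, ANNT followed directly by AGGTCA, had a match within 3000 bases of 1 member, HADHA, and in 11.3% of all genes. It lay at position -1599 from the HADHA start and is shown with the element in capitals and 8 bases on either side.
HADHA (chr2:26469082-26469107, plus strand): cacttattATTTAGGTCAgaagtggt
The single unit AGGTCA, which also lies inside the ROR element, was found within 3000 bases of all 8 members and of 97.8% of all genes, and in the 250 bases upstream of no member and of 9.71% of all genes. These matches describe letters only and do not mark bound sites.

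PDK4 lies at chr7:95212811-95225828 on the minus strand, CPT1A at chr11:68522088-68611878 on the minus strand and CPT2 at chr1:53662464-53679869 on the plus strand. ANGPTL4 lies at chr19:8428173-8439254 and ACADVL at chr17:7120444-7128585, both on the plus strand. ACADM lies at chr1:76190116-76253260 on the plus strand, HADHA at chr2:26413504-26467540 and PLIN2 at chr9:19108373-19149288, both on the minus strand. The exons of CPT2 overlap those of CZIB over 99 bases and those of a second gene, ENSG00000236723, over 527 bases, each on the opposite strand. Since nothing states that the counting used strand, reads there cannot be told apart, and the level of CPT2 is uncertain to that extent. No exon overlap with another gene was annotated for the main transcript of the other 7.

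In the vehicle library of HCC70, the level in FPKM ran from PLIN2 at 126 through ACADVL at 98.7, HADHA at 82.6, ACADM at 46.4, CPT1A at 18.9, CPT2 at 18.2 and ANGPTL4 at 4.38 down to PDK4 at 1.24. In MDA-MB468 the vehicle used for XY018 and ATV had the order ACADVL at 93.8, HADHA at 67.9, PLIN2 at 24.4, CPT1A at 23.8, CPT2 at 19.6, ACADM at 18.2, ANGPTL4 at 0.17 and PDK4 at 0.07. In the vehicle for GSK805 it was ACADVL at 407, HADHA at 75.0, ACADM at 40.4, CPT1A at 22.8, PLIN2 at 19.3, CPT2 at 12.8, ANGPTL4 at 6.64 and PDK4 at 0.123. The β-oxidation and carnitine enzymes were thus expressed throughout, while PDK4 was the lowest member in each vehicle. Neighbours as close as CPT1A and CPT2 in HCC70, or PLIN2 and CPT1A in MDA-MB468, cannot be ordered without replicates.

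The MDA-MB468 vehicles of the separate tables did not give the same levels. ANGPTL4 was 39.0 times as high in the vehicle for GSK805 as in the other vehicle, ACADVL 4.34 times, ACADM 2.22 times and PDK4 1.76 times. HADHA stood at 1.10 times, CPT1A at 0.959, PLIN2 at 0.792 and CPT2 at 0.652. For ANGPTL4 this gap between untreated libraries exceeded every treated ratio within MDA-MB468. Culture, library and table cannot be told apart in it.

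**Figure D1:**
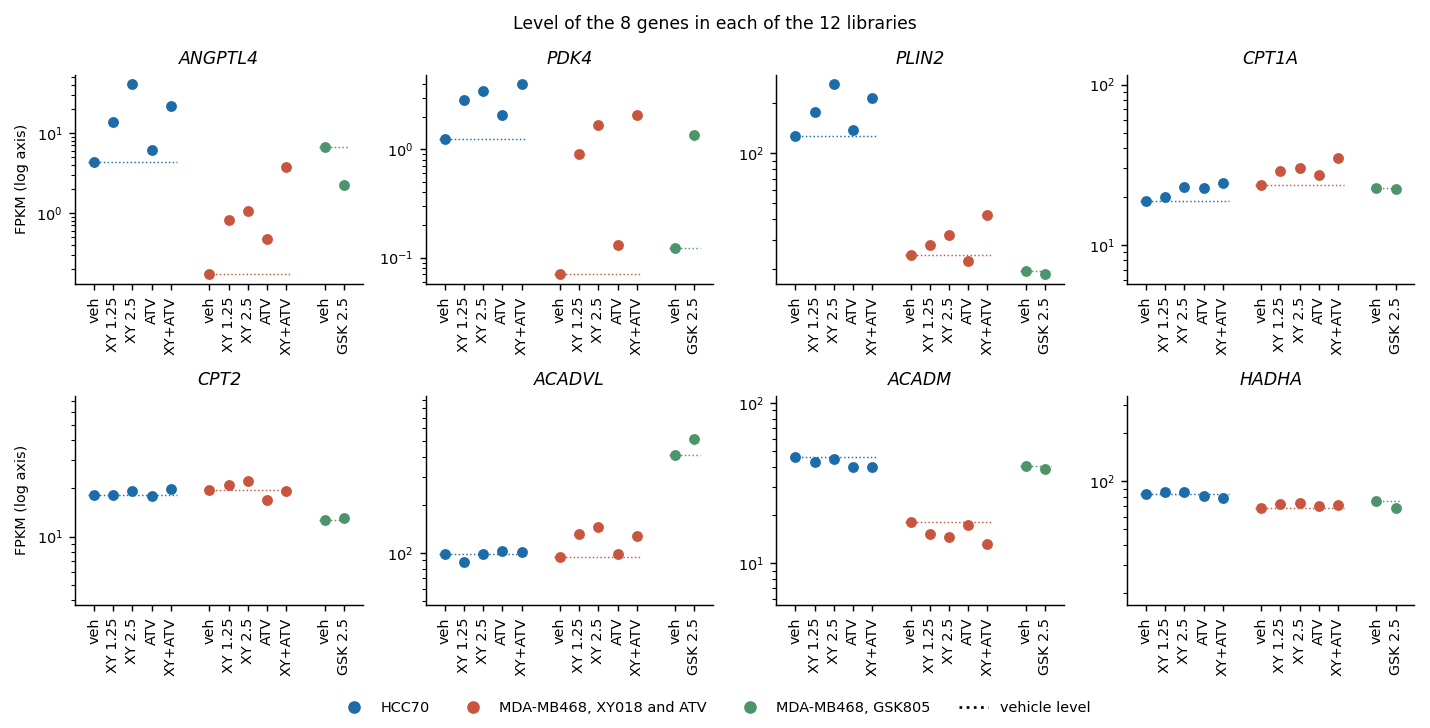
Level of each of the 8 genes in FPKM (vertical log axis, with its own range for each gene) in each of the 12 libraries, 1 point per library, grouped as HCC70 (blue), MDA-MB468 with XY018 or ATV (red) and MDA-MB468 with GSK805 (green). Dotted lines show the vehicle level of each table. PDK4 lies above its vehicle in all 9 treated libraries and ANGPTL4 in 8 of 9, whereas CPT2 and HADHA stay near the vehicle line.

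In HCC70, ANGPTL4, PDK4 and PLIN2 stood highest against vehicle in the libraries with XY018, and none of the 8 genes was 1.5-fold lower in any of the 4 treated libraries. With XY018 at 1.25 μM, 2 of 8 members, PDK4 and ANGPTL4, were at least 1.5-fold higher, where 1.93% of 11738 genes were higher and 2.64% lower. With XY018 at 2.5 μM, 3 of 8 were higher, PLIN2 being added, where 2.62% of 11721 genes were higher and 3.26% lower. ATV left 1 of 8 past the threshold, PDK4, beside 2.22% higher and 1.32% lower of 11742 genes. With both compounds, PDK4, ANGPTL4 and PLIN2 were higher, beside 4.38% higher and 2.93% lower of 11792 genes. Because these ratios were known when the genes were chosen, nothing is read from the shares. The median log2 ratio of the 8 genes was 0.05, 0.18, 0.10 and 0.24 in the same order, against medians of all genes between -0.02 and -0.01. Of these bulk RNA values, fewer cells of a kind and less RNA per cell cannot be told apart.

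In MDA-MB468, 2.5 μM of XY018 left PDK4, ANGPTL4 and ACADVL at least 1.5-fold higher, which is 3 of 8 where 14.1% of 11919 genes were higher and 14.5% lower. With XY018 at 1.25 μM, none of the 6 members that reached 1 FPKM was past the threshold, where 9.73% of 11844 genes were higher and 8.38% lower. With ATV, none of 6 was past it, where 1.37% of 11710 genes were higher and 0.803% lower. With both compounds, PDK4, ANGPTL4 and PLIN2 were higher, beside 13.1% higher and 12.2% lower of 11906 genes. PDK4 and ANGPTL4 were under 1 FPKM in this vehicle and with ATV or XY018 at 1.25 μM, and entered the other counts only through the libraries in which they were high. Over all 8 members, those under 1 FPKM included, the median log2 ratio was 0.24 and 0.37 at the lower and the higher dose of XY018, 0.05 with ATV and 0.50 with both, against medians of all genes between -0.01 and 0.01.

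With GSK805, 1 member was at least 1.5-fold higher, PDK4, and 1 was at least 1.5-fold lower, ANGPTL4. Among 19951 genes in that comparison, 17.6% were higher and 16.6% lower, so a share of this size is common there. The median log2 ratio of the 8 members was -0.04, and that of all genes was 0.01.

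PDK4, the kinase that holds pyruvate dehydrogenase inactive, read 1.24 FPKM in HCC70 vehicle, 2.85 and 3.43 FPKM with XY018 at 1.25 and 2.5 μM, 2.07 FPKM with ATV and 4 FPKM with both. All treated libraries lay above the vehicle. The log2 ratio was 1.14 at the lower dose of XY018 (counting interval 0.64 to 1.74, from 91 against 43 estimated fragments), 1.4 at the higher dose (0.94 to 1.99), 0.70 with ATV (0.17 to 1.31) and 1.61 with both (1.17 to 2.20). Of 11721 genes at the higher dose, PDK4 ranked 35 from the top. With 1 FPKM added instead of 0.1, the ATV value no longer passed 1.5-fold.

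In MDA-MB468, PDK4 was close to silent without XY018, at 0.07 FPKM in vehicle and 0.13 FPKM with ATV, which correspond to about 5 and 9 fragments. It read 0.90 and 1.66 FPKM with XY018 at 1.25 and 2.5 μM and 2.07 FPKM with both compounds. The libraries that contained XY018 thus all stood above the pair that did not. The log2 ratio with 0.1 FPKM added was 2.56 and 3.37 at the 2 doses, 0.44 with ATV and 3.67 with both. Because of the low vehicle value, the added 0.1 decides much of its size: without it, the ratio at the higher dose was 4.57, with a counting interval of 3.26 to 6.18, and with ATV it was 0.89, with an interval of -0.87 to 2.78 that includes 0. PDK4 ranked 14 from the top of 11919 genes at the higher dose and 12 from the top of 11906 genes with both compounds. It reached 1 FPKM only in the treated library of each pair and entered these rankings through it, so a high rank carries no further weight.

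The GSK805 pair gave PDK4 0.123 FPKM in vehicle and 1.36 FPKM with the compound. This is a log2 ratio of 2.71 with 0.1 added, from about 3 and 40 fragments, and the counting interval without the added value was 2.05 to 6.03. PDK4 reached 1 FPKM only in the treated library and entered the comparison through it, so its place among the members past 1.5-fold is a description of these 2 libraries.

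ANGPTL4, which restrains lipoprotein lipase outside the cell, read 4.38 FPKM in HCC70 vehicle, 13.6 and 40.8 FPKM with XY018 at 1.25 and 2.5 μM, 6.10 FPKM with ATV and 22.0 FPKM with both. The 3 libraries with XY018 stood apart from vehicle and ATV. The log2 ratio was 1.62 (counting interval 1.26 to 2.03) and 3.19 (2.88 to 3.58) for the doses of XY018, 0.47 (0.05 to 0.92) with ATV and 2.30 (1.98 to 2.70) with both. At the higher dose ANGPTL4 ranked 6 from the top of 11721 genes.

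In MDA-MB468 the ANGPTL4 level was 0.17 FPKM in vehicle, 0.81 and 1.05 FPKM with XY018 at 1.25 and 2.5 μM, 0.47 FPKM with ATV and 3.75 FPKM with both compounds. The vehicle was the lowest library and the combination the highest. The log2 ratios with 0.1 FPKM added were 1.75, 2.09, 1.08 and 3.83, and the vehicle rested on about 6 fragments. Without the added value, the counting interval was 1.37 to 4.18 at the higher dose of XY018, 0.10 to 3.14 with ATV and 3.32 to 5.95 with both.

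With GSK805, ANGPTL4 went the other way, at 6.64 FPKM in vehicle and 2.22 FPKM with the compound, a log2 ratio of -1.54 with a counting interval of -2.21 to -0.99. Both values were above the 1.05 FPKM seen with XY018 at the same dose. The GSK805 library lay below its own vehicle and above the vehicle of the XY018 experiment. Against that other vehicle, across separately normalized tables, the log2 ratio was 3.10.

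PLIN2, the droplet coat protein found in most cell types, read 126 FPKM in HCC70 vehicle, 177 and 261 FPKM with XY018 at 1.25 and 2.5 μM, 138 FPKM with ATV and 216 FPKM with both. It was the highest of the 8 genes in all 5 HCC70 libraries. The log2 ratio was 0.49 (counting interval 0.41 to 0.57), 1.05 (0.98 to 1.12), 0.13 (0.04 to 0.21) and 0.78 (0.70 to 0.85). At 1.25 μM the 1.4-fold difference lay just short of the 1.5-fold threshold.

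In MDA-MB468 the level of PLIN2 was 24.4 FPKM in vehicle, 27.9 and 32.0 FPKM with the doses of XY018, 22.4 FPKM with ATV and 42.5 FPKM with both. The combination stood above all other libraries of the line. Its log2 ratio was 0.80 (counting interval 0.68 to 0.92), against 0.19 and 0.39 for XY018 and -0.12 for ATV. With GSK805 the level was 18.5 FPKM against 19.3 FPKM in vehicle, a log2 ratio of -0.06 with an interval of -0.31 to 0.19.

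CPT1A, the gate of the carnitine shuttle, read 18.9 FPKM in HCC70 vehicle, 19.8 and 22.8 FPKM with XY018, 22.7 FPKM with ATV and 24.2 FPKM with both. The differences were small and no library was lower than vehicle. In MDA-MB468 it read 23.8 FPKM in vehicle, 28.9 and 30.2 FPKM with XY018, 27.1 FPKM with ATV and 34.9 FPKM with both. The combination gave the largest CPT1A ratio in either line, with a log2 ratio of 0.36 (counting interval 0.24 to 0.48) in HCC70 and 0.55 (0.48 to 0.63) in MDA-MB468, and at 1.47-fold the latter was just under the threshold. With GSK805 it read 22.2 FPKM against 22.8 FPKM in vehicle, a log2 ratio of -0.04 (-0.17 to 0.09).

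CPT2, the inner-membrane partner, differed little anywhere. It ranged from 18.1 to 19.8 FPKM over the HCC70 libraries and from 17.0 to 22.2 FPKM over the MDA-MB468 libraries with XY018 or ATV, and read 12.8 and 13.0 FPKM in vehicle and GSK805. All 9 log2 ratios lay between -0.21 and 0.18. The lowest was that of ATV in MDA-MB468, with a counting interval of -0.34 to -0.08.

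ACADVL, the very long-chain acyl-CoA dehydrogenase, read 98.7 FPKM in HCC70 vehicle, 88.1 and 98.9 FPKM with XY018, 104 FPKM with ATV and 102 FPKM with both. HCC70 thus held its ACADVL level within a narrow range, and its log2 ratios were between -0.16 and 0.07. In MDA-MB468 it read 93.8 FPKM in vehicle, 131 and 145 FPKM with XY018, 98.4 FPKM with ATV and 129 FPKM with both. The 3 libraries with XY018 stood above vehicle and ATV, at log2 ratios of 0.48 (counting interval 0.42 to 0.54), 0.63 (0.57 to 0.69) and 0.45 (0.39 to 0.51). The value at 2.5 μM, 1.55-fold, lay just inside the threshold and ranked 1509 of 11919 genes. With GSK805 the level was 516 FPKM against 407 FPKM in vehicle, a log2 ratio of 0.34 (0.30 to 0.39).

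ACADM, the medium-chain enzyme, was below its vehicle in every comparison. It read 46.4 FPKM in HCC70 vehicle, 42.9 and 44.6 FPKM with XY018 and 40.0 FPKM with ATV as well as with both compounds. In MDA-MB468 it read 18.2 FPKM in vehicle, 15.2 and 14.7 FPKM with XY018, 17.4 FPKM with ATV and 13.2 FPKM with both. No ratio passed 1.5-fold, and the lowest, a log2 ratio of -0.46 with both compounds in MDA-MB468, had a counting interval of -0.62 to -0.30. In that line and library ACADM and ACADVL therefore lay on opposite sides of vehicle. With GSK805, ACADM read 39.1 FPKM against 40.4 FPKM, a log2 ratio of -0.05 (-0.20 to 0.11). The counting interval of ACADM also included 0 for both doses of XY018 in HCC70 and for ATV in MDA-MB468, and several comparisons share a vehicle.

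HADHA, of the trifunctional protein, ranged from 78.55 to 85.4 FPKM in HCC70 and from 67.9 to 72.7 FPKM in MDA-MB468 with XY018 or ATV. Its log2 ratios there were between -0.07 and 0.10. With GSK805 it read 67.5 FPKM against 75.0 FPKM in vehicle, a log2 ratio of -0.15 (counting interval -0.25 to -0.05). HADHA and CPT2 had the narrowest range of log2 ratios of the 8 members over the 9 comparisons.

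**Figure D2:**
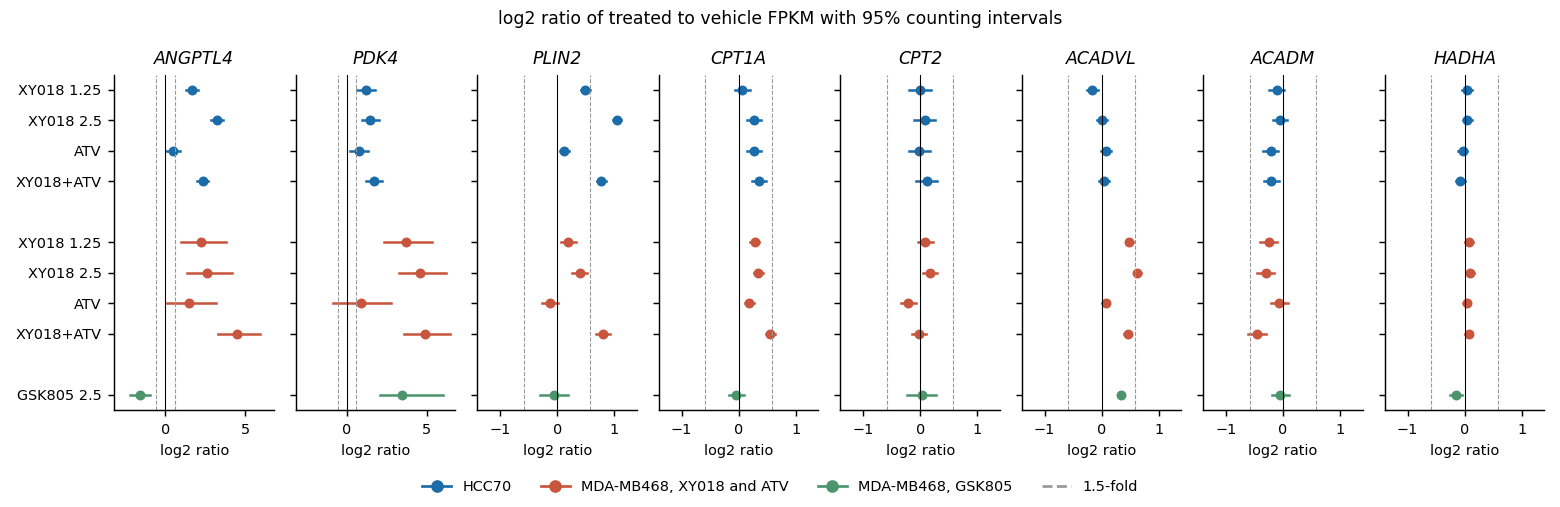
log2 ratio of treated to vehicle FPKM, without an added value, for each of the 8 genes (panels) and each of the 9 treated libraries (vertical), with 95% counting intervals as bars and 1.5-fold as dashed lines. The horizontal range is wider for ANGPTL4 and PDK4 than for the other 6 genes. The bars are widest for PDK4 in MDA-MB468 and for ANGPTL4 in MDA-MB468 with XY018 or ATV. Their vehicles rest on about 5 fragments for PDK4, or 3 in the GSK805 pair, and on about 6 for ANGPTL4. GSK805 lies left of 0 for ANGPTL4.

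Between the doses of XY018 in HCC70, ANGPTL4 was 1.57 higher on the log2 scale at 2.5 than at 1.25 μM (counting interval 1.37 to 1.80) and PLIN2 was 0.56 higher (0.49 to 0.63). CPT1A differed by 0.21 (0.08 to 0.33) and ACADVL by 0.17 (0.07 to 0.26). For PDK4 the step was 0.26 with an interval of -0.13 to 0.68, so a difference between doses was not detectable at this depth. The steps of CPT2, ACADM and HADHA were between 0.00 and 0.09, and their intervals included 0.

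In MDA-MB468 the same step was 0.82 for PDK4 (counting interval of the ratio without the added value 0.41 to 1.36), 0.20 for PLIN2 (0.08 to 0.33) and 0.15 for ACADVL (0.09 to 0.20). ANGPTL4 differed by 0.34 with an interval of -0.39 to 1.15. The intervals of CPT1A, CPT2, ACADM and HADHA also included 0. The line in which PDK4 showed the clearer dose step was therefore not the one in which ANGPTL4 did, and the difference between lines was not tested.

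Both compounds together were set beside XY018 alone at the same 1.25 μM. In HCC70 the combination was higher by 0.69 on the log2 scale for ANGPTL4 (counting interval 0.45 to 0.93), 0.47 for PDK4 (0.10 to 0.89), 0.29 for PLIN2 (0.22 to 0.36) and 0.29 for CPT1A (0.17 to 0.42). In MDA-MB468 it was higher by 2.08 for ANGPTL4 (1.62 to 2.86 without the added value), 1.12 for PDK4 (0.75 to 1.65), 0.61 for PLIN2 (0.49 to 0.73) and 0.27 for CPT1A (0.20 to 0.34). These 4 genes were higher with the combination than with XY018 alone in both lines, beyond counting error. The share of all genes that were so was not computed, and counting error leaves out variation between cultures and libraries. Nothing particular to these genes is therefore read from it. ACADM was lower in MDA-MB468, at -0.20 (-0.37 to -0.04), and HADHA was lower in HCC70, at -0.12 (-0.20 to -0.03). ACADVL was higher in HCC70, at 0.21 (0.11 to 0.30).

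The sum of the log2 ratios of the single compounds is a reference for the combination. In HCC70 the sum and the observed ratio were 2.09 and 2.30 for ANGPTL4, 1.83 and 1.61 for PDK4, 0.62 and 0.78 for PLIN2 and 0.33 and 0.36 for CPT1A. The combination lay above the sum for ANGPTL4, PLIN2 and CPT1A in HCC70 and below it for PDK4. It also lay above the sum for CPT2 (-0.02 and 0.12), ACADVL (-0.09 and 0.04) and ACADM (-0.32 and -0.21), and below it for HADHA (0.01 and -0.07). In MDA-MB468 the sum and the observed ratio were 2.83 and 3.83 for ANGPTL4, 2.99 and 3.67 for PDK4, 0.07 and 0.80 for PLIN2 and 0.47 and 0.55 for CPT1A. The combination lay above the sum for each of these 4 genes there, and for CPT2 (-0.12 and -0.02). It lay below the sum for ACADVL (0.55 and 0.45), ACADM (-0.32 and -0.46) and HADHA (0.11 and 0.07). The PDK4 and ANGPTL4 values rest on a vehicle of about 5 and 6 fragments and depend on the added 0.1 FPKM. For PLIN2 neither compound alone reached 1.5-fold and the combination read 1.74-fold. Without replicates, no test of a departure from the sum was possible.

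XY018 and GSK805 were compared at 2.5 μM in MDA-MB468 for all 8 genes, each against its own vehicle and in separately normalized tables, with no test possible. For XY018 and GSK805 in turn, the log2 ratio of PDK4 was 3.37 and 2.71, and in both comparisons PDK4 reached 1 FPKM only in the treated library. ANGPTL4 was at 2.09 and -1.54, on opposite sides, and with XY018 it too reached 1 FPKM only in the treated library. ACADVL was at 0.63 and 0.34, CPT1A at 0.35 and -0.04, PLIN2 at 0.39 and -0.06, CPT2 at 0.18 and 0.03, HADHA at 0.10 and -0.15, and ACADM at -0.31 and -0.05. The counting intervals of the compounds did not overlap for ANGPTL4, ACADVL, CPT1A, PLIN2 and HADHA. They overlapped for PDK4, CPT2 and ACADM, which does not show that the compounds act alike on these genes, and the 39.0-fold gap between the vehicles for ANGPTL4 stands beside its values. Overlap was not computed for all genes, and the intervals cover counting error only. Nothing particular to the 8 genes is therefore read from it.

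The other genes of the pathways were taken from 9 lists written with earlier results of these data known. Their counts at 2.5 μM stand beside shares of all genes of 2.62% higher and 3.26% lower in HCC70, 14.1% and 14.5% in MDA-MB468 with XY018, and 17.6% and 16.6% with GSK805, and nothing particular to a list is read from them. Among the 14 genes of mitochondrial fatty acid entry, 2 of 12 measured at 1 FPKM or above were higher and 1 lower with XY018 at 2.5 μM in MDA-MB468, 1 of 11 was higher in HCC70, and 1 was higher and 3 lower of 12 with GSK805. SLC25A20, the carnitine-acylcarnitine carrier between CPT1A and CPT2, read 3.94 FPKM in MDA-MB468 vehicle, 8.46 and 10.3 FPKM with XY018, 4.34 FPKM with ATV and 8.04 FPKM with both. It resembled ACADVL in that the libraries with XY018 were high, whereas in HCC70 its log2 ratio at 2.5 μM was 0.18 and with GSK805 0.07. ACSL3, an acyl-CoA synthetase of the droplet surface, had log2 ratios of 1.00 and 1.24 with XY018 in HCC70, -0.33 and -0.53 in MDA-MB468 and -0.70 with GSK805. CPT1B, the muscle-type counterpart of CPT1A, was at 0.65 with XY018 and -0.78 with GSK805 at 2.5 μM in MDA-MB468.

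Of 13 measured genes of mitochondrial β-oxidation in HCC70 none was past 1.5-fold with XY018 at 2.5 μM, and in MDA-MB468 ACADVL was the only one of 14. With GSK805 none of 14 passed. The list median at 2.5 μM was -0.04 in HCC70, -0.08 in MDA-MB468 and -0.10 with GSK805. HADH, the short-chain hydroxyacyl dehydrogenase, was at a log2 ratio of -0.71 with both compounds in MDA-MB468, DECR1 at -0.36 with both in HCC70 and ECHS1 at -0.54 with GSK805. Members and neighbours of this enzyme group thus included genes on either side of vehicle. Among genes of peroxisomal β-oxidation none of 11 was past the threshold with XY018 at 2.5 μM in MDA-MB468, and the list median was -0.05 in HCC70, -0.06 in MDA-MB468 and 0.19 with GSK805. EHHADH, the peroxisomal bifunctional enzyme, was at 1.32 with GSK805, and ABCD3 at -0.45 with both compounds in MDA-MB468.

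PDK4 was the only kinase of pyruvate dehydrogenase past 1.5-fold higher with XY018 alone or GSK805 in any comparison. In MDA-MB468, with XY018 at 2.5 μM and with GSK805, PDK4 reached 1 FPKM only in the treated library and was counted through it. Of 11 genes of the complex with its kinases and phosphatases, 2 were higher with XY018 at 2.5 μM in HCC70, 1 in MDA-MB468 and 1 with GSK805, and the medians of the list were -0.15, -0.35 and -0.23. In HCC70 the second gene was PDP1, a phosphatase that reverses the kinases, which read 31.9 FPKM in vehicle, 60.3 and 66.9 FPKM with XY018, 31.9 FPKM with ATV and 61.9 FPKM with both. A kinase and a phosphatase were therefore both higher there. In MDA-MB468, PDP1 was at a log2 ratio of -0.35 at the higher dose and -0.73 with both compounds, and with GSK805 PDP2 was at -0.79. PDK2 was at 0.76 with both compounds in HCC70, and PDK1 at -0.72 with ATV.

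The lipid droplet list, PLIN2 included, held 2 of 8 measured genes past 1.5-fold higher with XY018 at 2.5 μM in HCC70, 2 of 7 in MDA-MB468 and 2 of 7 with GSK805, with none lower. In HCC70 they were PLIN2 and G0S2, an inhibitor of the lipase PNPLA2, which read 2.53 FPKM in vehicle, 4.68 and 6.47 FPKM with XY018, 2.34 FPKM with ATV and 6.71 FPKM with both. In MDA-MB468, where PLIN2 at a log2 ratio of 0.39 did not pass, they were CIDEC, which helps droplets to fuse, at 2.37 FPKM in vehicle and 3.91, 5.64, 2.90 and 6.17 FPKM with the doses of XY018, ATV and both, and PLIN1, at 0.35 FPKM in vehicle and 2.42 FPKM at 2.5 μM. G0S2 was not over 0.06 FPKM in MDA-MB468 with XY018 or ATV and could not be counted there. With GSK805 the higher genes were CIDEB, at a log2 ratio of 1.56, and PLIN1, at 0.59 from 0.958 FPKM in vehicle. With XY018 at 2.5 μM in MDA-MB468 and with GSK805, PLIN1 reached 1 FPKM only in the treated library and entered the count through it. In triglyceride synthesis and lipolysis, 1 of 12 genes was higher and 1 lower in HCC70 at 2.5 μM, 3 of 12 were higher in MDA-MB468, where 14.1% of all genes were, and 1 of 12 with GSK805, where 17.6% were. PNPLA2, the first lipase of triglyceride breakdown, read 68.2 FPKM in MDA-MB468 vehicle and 149 FPKM with XY018 at 2.5 μM. MGLL, the lipase of the last step, was at 0.89 in HCC70 at that dose, and DGAT2, which makes triglyceride, at 0.59 with GSK805.

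Of the 7 angiopoietin-like and lipoprotein lipase genes, 3 were at 1 FPKM or above in HCC70 with XY018 at 2.5 μM, 2 in MDA-MB468 and 3 with GSK805. ANGPTL4 was the only one higher in both XY018 comparisons, and with GSK805 LMF1, a lipase maturation factor, was higher at a log2 ratio of 0.82. With XY018 in MDA-MB468, ANGPTL4 reached 1 FPKM only in the treated library and entered the count through it. LPL itself was at 0 in every MDA-MB468 library. Of 8 other PPAR target genes measured in HCC70 at 2.5 μM, 1 was higher and 2 lower, of 7 in MDA-MB468 1 was higher and 3 lower, beside the near-even shares of all genes given above, and of 6 with GSK805 none was past the threshold. FABP5, a fatty acid carrier, was at -0.80 in HCC70 at 2.5 μM, and UCP2, a mitochondrial carrier, at -1.16 in MDA-MB468 at that dose and -0.48 with GSK805. FGF21, a secreted hormone, was the higher gene in both lines, at 1.02 FPKM against 0.40 FPKM in HCC70, where it reached 1 FPKM only in the treated library, and 3.63 FPKM against 1.03 FPKM in MDA-MB468. With ATV alone, the genes of the 9 lists past 1.5-fold beside PDK4 were LMF1 as the higher one and PDK1 and CIDEC as the lower ones in HCC70, and LPIN1 as the higher one in MDA-MB468.

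**Figure D3:**
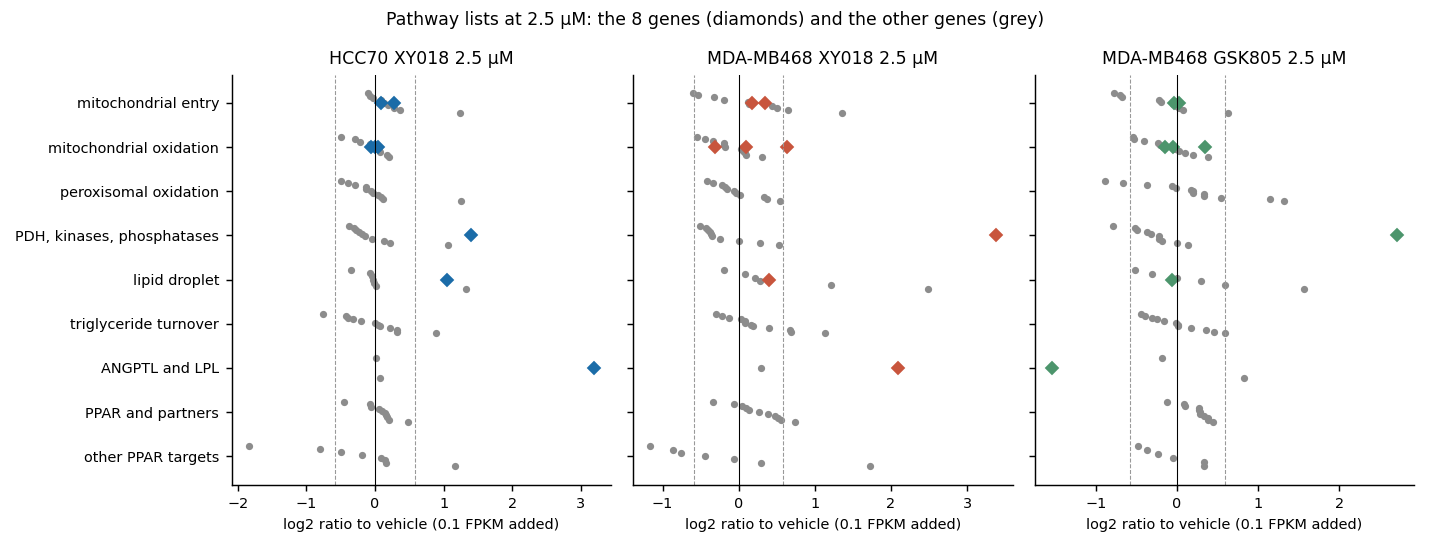
log2 ratio to vehicle (horizontal, 0.1 FPKM added, with its own range in each panel) of genes at 1 FPKM or above in 9 pathway lists (vertical), for XY018 at 2.5 μM in HCC70 and in MDA-MB468 and for GSK805 at 2.5 μM in MDA-MB468. Diamonds are the 8 genes described here, grey points the other genes, and dashed lines 1.5-fold. ANGPTL4 lies at 3.19, 2.09 and -1.54, in a list with only 3, 2 and 3 genes shown. PDK4 lies far from the rest of its list in both MDA-MB468 panels, at 3.37 and 2.71, while the mitochondrial oxidation genes cluster near 0. PDK4 in both MDA-MB468 panels, and ANGPTL4 in MDA-MB468 with XY018, reached 1 FPKM only in the treated library and are shown through it.

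The receptors of these pathways were themselves measured. PPARA read 9.32 FPKM in HCC70 vehicle and 10.8 FPKM with XY018 at 2.5 μM, and 10.2 and 15.0 FPKM in MDA-MB468, a log2 ratio of 0.20 and 0.56. PPARD, the form found in most tissues, read 31.8 and 44.4 FPKM in HCC70 and 26.4 and 44.2 FPKM in MDA-MB468, where its log2 ratio of 0.74 was the one of 11 receptor and partner genes past 1.5-fold. PPARG was at -0.06 in HCC70 and 0.39 in MDA-MB468. None of 10 genes of this list passed in HCC70 and none of 11 with GSK805, where PPARD was at -0.13 and NRIP1, a corepressor, at 0.44. The list median was 0.12 in HCC70 at 2.5 μM, 0.27 in MDA-MB468 and 0.28 with GSK805. PPARA had its largest HCC70 ratio, 0.52, with both compounds.

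Markers of other cell types also differed between libraries. The 4 leukocyte markers in the HCC70 table summed to 171 to 421 FPKM, nearly all of it CD14, which read 170 FPKM in vehicle, 317 and 419 FPKM with XY018, 171 FPKM with ATV and 380 FPKM with both, while PTPRC did not exceed 0.63 FPKM and CD3E 0.14 FPKM. CD14 was thus high in the HCC70 libraries in which ANGPTL4 and PLIN2 were high. In MDA-MB468 with XY018 or ATV, the 5 leukocyte markers summed to 8.25 to 18.8 FPKM, with CD14 highest in vehicle. The 6 adipocyte markers summed to 3.11 to 8.61 FPKM there, mostly CIDEC and PLIN1, with FABP4 and LPL at 0 and ADIPOQ not above 0.36 FPKM, and these 2 genes of the list were high in the libraries in which PDK4 was high. In HCC70 the adipocyte markers summed to 2.32 to 3.16 FPKM, and in the GSK805 pair to 1.31 and 1.96 FPKM beside leukocyte sums of 52.8 and 95.9 FPKM. The part of these markers in the results was not tested. Fibroblast markers summed to between 3.86 and 17.8 FPKM over all libraries, endothelial markers to between 0.30 and 6.37 FPKM, and hepatocyte markers to between 0.06 and 3.38 FPKM.

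The genes most like 4 of the members were sought among 7571 genes that reached 5 FPKM in a library of each table, by Pearson's r over the 9 log2 ratios. These comparisons share vehicles, so r is a description. For PDK4 they were DDIT3 (r = 0.985), CHMP1B (0.983) and MXD1 (0.982). DDIT3, a stress-response transcription factor, ran from 0.08 with ATV to 2.56 with both compounds in MDA-MB468, at 1.62 with GSK805. For ANGPTL4 they were VEGFA (0.936), RNF111 (0.935) and SDC4 (0.923). VEGFA, the angiogenic growth factor, shared the opposite signs of the antagonists in MDA-MB468, at 0.62 with XY018 at 2.5 μM and -0.67 with GSK805. Because it was picked by r over ratios that include these, the shared signs are no separate result. For CPT1A they were HSPB1 (0.963), KLC2 (0.930) and UBAC1 (0.928), and for PLIN2 CORO2A (0.938), FBXO32 (0.936) and SDC4 (0.930). The ratios of RNF111 stayed between -0.08 and 0.18, so a high r does not imply differences of like size.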

How the data were processed

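RNA was sequenced from 12 samples of HCC70 and MDA-MB468 cells, with 1 library per condition. Per the labels and the study's methods, the authors prepared TruSeq libraries, used BWA and Bowtie to align reads to GRCh37/hg19, and took expression from Cufflinks. Tool versions are not given in the sources used here. The authors deposited FPKM values in 3 separately normalized tables. The headers name no unit, and FPKM was taken from the methods and from the range of the values. The tables hold no fold changes or p-values of the authors.

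Log2 ratios were computed with 0.1 FPKM added, treated over vehicle within a table, which understates the difference of low genes. Genes that reached 1 FPKM in the treated or the vehicle library were kept, and ratios past 1.5-fold counted. Where a symbol had several entries, the entry with the highest mean was used. No test was run. The members, the 9 pathway lists and the marker lists were chosen with earlier results of these data known. Named beside the 8 members were, from each list, the gene at 5 FPKM or above with the largest ratio in HCC70, in MDA-MB468 with XY018 or ATV, and with GSK805, then the 3 genes most like PDK4, ANGPTL4, CPT1A and PLIN2, and PPARA, PPARD and PPARG. Some genes that this rule names are not reported here. Further genes of the lists (FGF21, PLIN1, LMF1, PDK1, PDK2, CIDEC with ATV, LPIN1) and single markers were named after their values were seen.

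Depth was estimated per library as the value at which the FPKM of genes with few fragments came closest to whole fragments, given the MANE Select transcript length of GENCODE 44 lifted to GRCh37, less an offset of 0, 20 or 200 nt that differed between tables. Depths and fragments are therefore approximate. Fragments per gene gave the 95% Clopper-Pearson intervals, which leave out variation between cultures and libraries. The ratios and the depth estimate at an offset of 0 were tested on simulated data. The choice of offset and the intervals were not tested in this way. The alternatives tried were added values of 1 and 0.01 FPKM, no filter, a filter at 5 FPKM, a 2-fold threshold, rescaling to a median log2 ratio of 0, summed entries, and the other MDA-MB468 vehicle for GSK805. Scripts ran in Python 3.11.15 with scipy 1.17.1, numpy 2.4.6 and pandas 2.3.3, and figures in matplotlib 3.10.9.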

Additional observations from a re-analysis of the deposited data

Results flagged for a closer look

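ANGPTL4 was picked out because the antagonists put it on opposite sides of vehicle at the same dose in MDA-MB468, where its log2 ratio was 2.09 for 2.5 μM of XY018 but -1.54 for 2.5 μM of GSK805. With XY018, ANGPTL4 reached 1 FPKM only in the treated library, at 1.05 FPKM against 0.17 FPKM in vehicle, and entered the comparison through it. The vehicles of these comparisons differed 39.0-fold in ANGPTL4. CPT1B, the muscle-type carnitine palmitoyltransferase, was picked out for the same reason, at 0.65 with XY018 and -0.78 with GSK805. Each direction rests on 1 library and its vehicle, and neither difference was tested.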

How the results depend on the processing

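No paired analysis was possible because each condition has 1 library. For the same reason no library could be left out. Counts of the 8 genes past 1.5-fold stayed within 1.5 times the reported value in 118 recomputed cases and moved further in 10. The 118 include every count of lower genes, which was 0, or 1 with GSK805, in each case. All 10 were counts of higher genes, and among these a change from 3 to 2 falls within 1.5 times. With a filter at 5 FPKM, the number higher became 1 for XY018 at 1.25 μM in HCC70, 0 for ATV in HCC70, 1 for XY018 at 2.5 μM and 1 for both compounds in MDA-MB468, and 0 for GSK805. For ATV in HCC70 it was also 0 with 1 FPKM added and 0 at a 2-fold threshold. Without a filter it was 2 for XY018 at 1.25 μM and 1 for ATV in MDA-MB468, since PDK4 and ANGPTL4 in the former, and ANGPTL4 in the latter, were then counted from under 1 FPKM. The median log2 ratio of the members became 0.26 for both compounds in MDA-MB468 at 5 FPKM. With the other MDA-MB468 vehicle, GSK805 gave 4 higher members and a median of 0.55, and ANGPTL4 turned from -1.54 to 3.10. With 1 FPKM added, the log2 ratio of PDK4 in MDA-MB468 was 0.83 and 1.31 for the lower and the higher dose of XY018 and 1.52 for both compounds, and that of ANGPTL4 with both was 2.02. Counts over all genes depended most on the filter and threshold: the number higher with XY018 at 2.5 μM in HCC70 was 307, and 900 without a filter, 141 at 5 FPKM, 183 with 1 FPKM added and 87 at 2-fold. In MDA-MB468 it was 1682, and 2626, 1141, 1321 and 643 in the same order, and with GSK805 3520, and 6319, 1782, 2802 and 1865. Rescaling the medians, adding 0.01 FPKM and summing entries left every count of members at its reported value. Depth limits PDK4 and ANGPTL4 in MDA-MB468, whose vehicle values rest on 3 to 6 fragments except ANGPTL4 in the vehicle for GSK805.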
